A study of Mus musculus with 8 samples.

Results

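Metallothioneins are the small cysteine-rich proteins that hold zinc and copper inside cells, and their mouse genes Mt1, Mt2 and Mt3 were followed here in RNA sequencing of the ventral midbrain, the region that contains the dopaminergic neurons lost in Parkinson disease. The members were taken by name, and all 3 were found among the 15285 genes of the deposited count table, as RefSeq NM_013602 (Mt1), NM_008630 (Mt2) and NM_013603 (Mt3). There were 4 samples of genotype Ercc1 delta/+, heterozygous for a mutant allele of the excision repair gene Ercc1, and 4 wild type samples. Both genotypes were of mixed FVB:C57BL/6J strain on a regular diet with no treatment named, and the labels give neither age nor sex. RNA came from the dissected tissue as a whole, which mixes neurons, glia and vessels. Whether the samples came from different animals is not stated in the labels, and p-values therefore reflect only how far these samples spread, part of which may be technical.

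Mt1 and Mt2 are made in most tissues and, in brain, chiefly in astrocytes. Their transcription rises with zinc through the transcription factor Mtf1, which binds metal response elements in their promoters, and also with glucocorticoids and oxidative stress. Mt3 is enriched in brain, is found in neurons as well as astrocytes, responds little to metals and was first described as a growth inhibitory factor. Mt4, the fourth gene of the cluster, is known from stratified epithelium and had no row in the table.

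The promoters are shown because they are where the members differ in what is known to control them. Each is the 250 bases before and 50 bases after the start site, 5′ to 3′, from RefSeq on the GRCm38.p6 build, which differs from the mm9 build of the counts. All lie on the + strand of chromosome 8, at chr8:94178839-94179138 for Mt1, chr8:94172368-94172667 for Mt2 and chr8:94152357-94152656 for Mt3. Capitals mark every match, on either strand, to the core of the metal response element, spelled TGCACNC or TGCGCNC.
Mt1: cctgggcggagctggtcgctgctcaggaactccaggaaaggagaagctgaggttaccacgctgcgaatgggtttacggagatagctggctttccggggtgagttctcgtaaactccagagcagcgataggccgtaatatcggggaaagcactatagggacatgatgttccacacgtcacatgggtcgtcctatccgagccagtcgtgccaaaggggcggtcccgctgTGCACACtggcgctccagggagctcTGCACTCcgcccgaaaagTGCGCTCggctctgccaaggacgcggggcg
Mt2: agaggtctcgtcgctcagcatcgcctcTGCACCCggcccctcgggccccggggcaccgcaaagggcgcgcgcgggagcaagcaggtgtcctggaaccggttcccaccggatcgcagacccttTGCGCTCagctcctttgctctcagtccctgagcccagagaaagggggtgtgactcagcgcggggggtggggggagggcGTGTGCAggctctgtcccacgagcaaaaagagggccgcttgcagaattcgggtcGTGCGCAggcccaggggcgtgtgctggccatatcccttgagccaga
Mt3: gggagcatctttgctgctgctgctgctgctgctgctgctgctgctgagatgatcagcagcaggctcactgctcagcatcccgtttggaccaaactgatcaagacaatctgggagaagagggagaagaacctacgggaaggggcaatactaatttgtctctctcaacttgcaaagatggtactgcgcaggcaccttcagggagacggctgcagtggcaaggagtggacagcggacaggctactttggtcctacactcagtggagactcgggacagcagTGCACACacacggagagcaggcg

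The Mt1 window held 3 such matches, the Mt2 window 4 and the Mt3 window 1. The promoter of Slc30a1, a zinc exporter gene also known as a target of Mtf1, held 2. Of 32851 promoter windows of the same length, 25.7% held at least 1 match and 0.517% held 4 or more. A match to the glucocorticoid response element, searched as the arms GNACA and TGTNC with 3 bases between them, lay in the Mt1 window from 94 to 82 bases before the start, as GGACATGATGTTC on the + strand. The site fits the pattern on both strands, without being a perfect palindrome, and was counted once; 0.475% of all windows held one. The antioxidant response element core TGACNNNGC was matched in the Mt2 window from 79 to 71 bases before the start, as TGACTCAGC, and in 12.4% of all windows. These are letter matches in a window around the start that RefSeq annotates, not measured binding sites. GENCODE, on the same build, starts Mt1 transcripts 7 bases upstream and 122 and 152 bases downstream of the RefSeq start, Mt2 transcripts 46 and 242 bases downstream, and Mt3 transcripts at the same base and 139 bases downstream. Which start these libraries used was not measured, and the counts of matches and their positions hold for the RefSeq start only.

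**Figure D1:**
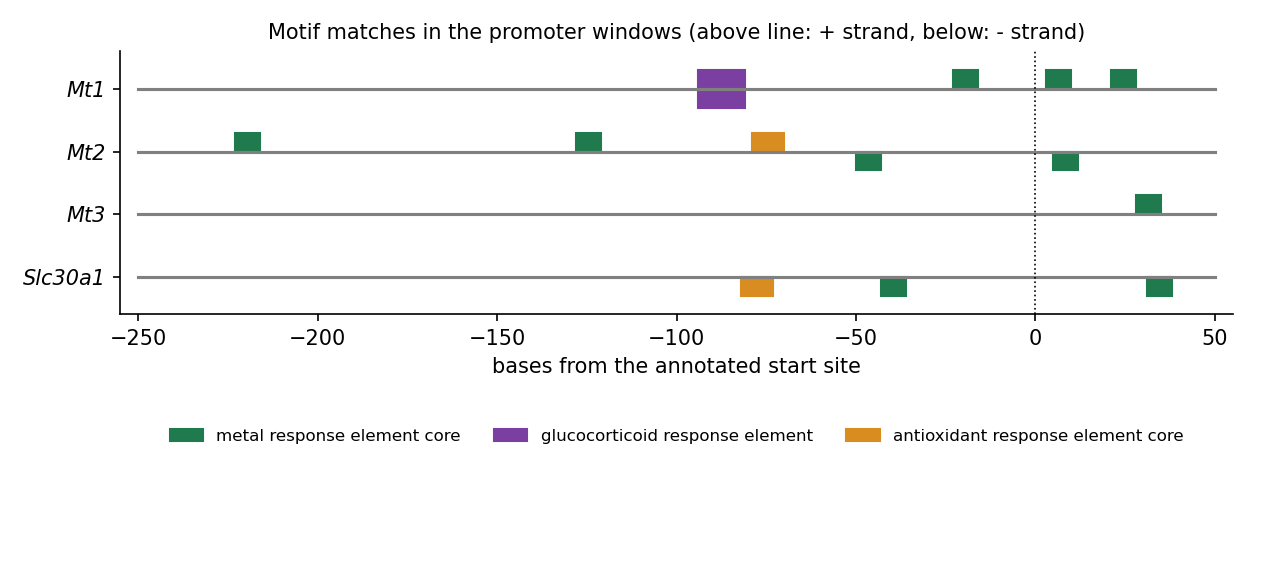
Positions of motif matches in the promoter windows of Mt1, Mt2, Mt3 and Slc30a1. The horizontal axis is the distance in bases from the annotated start site, and boxes above or below each line are matches on the + or - strand (green, metal response element core; orange, antioxidant response element core; purple, glucocorticoid response element). Mt1 and Mt2 hold 3 and 4 green boxes, Mt3 holds 1.

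The 8 libraries held between 18271978 and 31204701 counts. The dopaminergic markers were present (all 10 of 10 listed genes, Th between 32.0 and 67.5 CPM, the counts scaled to library size with TMM factors), as were all 16 of 16 astrocyte markers. The targeted gene Ercc1 was lower in every mutant library than in any wild type library, at 10.2, 12.9, 11.1 and 11.9 CPM in Ercc1 delta/+ replicates 1 to 4 and 14.1, 15.4, 15.0 and 13.8 CPM in wild type. Its log2 fold change of -0.34 (SE 0.10) missed the threshold of 0.05 (edgeR quasi-likelihood, Benjamini-Hochberg adjusted p = 0.114).

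The 3 members were abundant transcripts and kept 1 order in all 8 libraries. Per kilobase of transcript, the scale on which genes can be compared, the wild type level of Mt3 was 379 ± 36.7 CPM per kb (SD, n = 4), that of Mt1 258 ± 46.4 and that of Mt2 132 ± 23.6. Mt3 ranked 76, Mt1 138 and Mt2 404 of 14734 genes with a known transcript length. In Ercc1 delta/+ the order was the same, with Mt3 at 328 ± 24.1, Mt1 at 251 ± 48.1 and Mt2 at 140 ± 27.9 CPM per kb (SD, n = 4 each). Mt3 made up 49.4% ± 2.52 of the family's length-scaled level in wild type and 45.9% ± 4.85 in Ercc1 delta/+ (SD, n = 4 each), ranges that overlapped. The lengths are 549, 511 and 536 bases for Mt1, Mt2 and Mt3. With the longest annotated Mt1 transcript, of 1085 bases, the wild type level of Mt1 would be 131 CPM per kb, just under that of Mt2 at 132. The order of these 2 thus depends on the transcript taken, as does the share of Mt3. With the longest transcript of every gene, Mt3 ranked 66, Mt2 316 and Mt1 320.

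Mt1, one of the pair of stress- and metal-induced isoforms, showed no difference between genotypes larger than the spread of the libraries. It stood at 102, 164, 137 and 148 CPM in Ercc1 delta/+ replicates 1 to 4 and at 157, 169, 126 and 115 CPM in wild type replicates 1 to 4. The lowest library was Ercc1 delta/+ replicate 1 and the highest wild type replicate 2, and the other mutant libraries lay inside the wild type range. The means were 138 ± 26.4 and 142 ± 25.5 CPM (SD, n = 4 each). The log2 fold change was -0.04 (SE 0.16, 95% interval -0.41 to 0.33, edgeR quasi-likelihood adjusted p = 0.924), a mutant level between 0.754 and 1.26 times that of wild type.

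Mt2, its co-regulated neighbour, also overlapped between the genotypes. Its level was 52.0, 82.8, 70.7 and 81.6 CPM in mutant replicates 1 to 4, compared with 77.4, 78.1, 60.5 and 54.3 CPM in those of wild type. The 2 highest libraries and the lowest one were all mutant. The log2 fold change was 0.09 (SE 0.17, 95% interval -0.29 to 0.46, edgeR adjusted p = 0.818), which spans 0.819 to 1.38 times the wild type level.

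Mt3, the brain-enriched isoform, had the largest difference of the members under TMM scaling, where it did not pass the test, and the smallest (0.03) once a length and GC offset was added. Its levels were 164, 165, 187 and 186 CPM in Ercc1 delta/+ replicates 1 to 4 and 211, 222, 204 and 176 CPM in wild type replicates 1 to 4. Of the wild type libraries, replicates 1, 2 and 3 lay above every mutant library, while replicate 4 lay between the lower and the upper pair of mutants. The means were 176 ± 12.9 and 203 ± 19.7 CPM (SD, n = 4 each). The log2 fold change was -0.21 (SE 0.09, 95% interval -0.40 to -0.01), or 0.866 times wild type, with an edgeR quasi-likelihood adjusted p of 0.244. Before adjustment over all genes the value was 0.0398. An unadjusted p under 0.05 was reached by 18.6% of all 15000 genes tested.

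**Figure D2:**
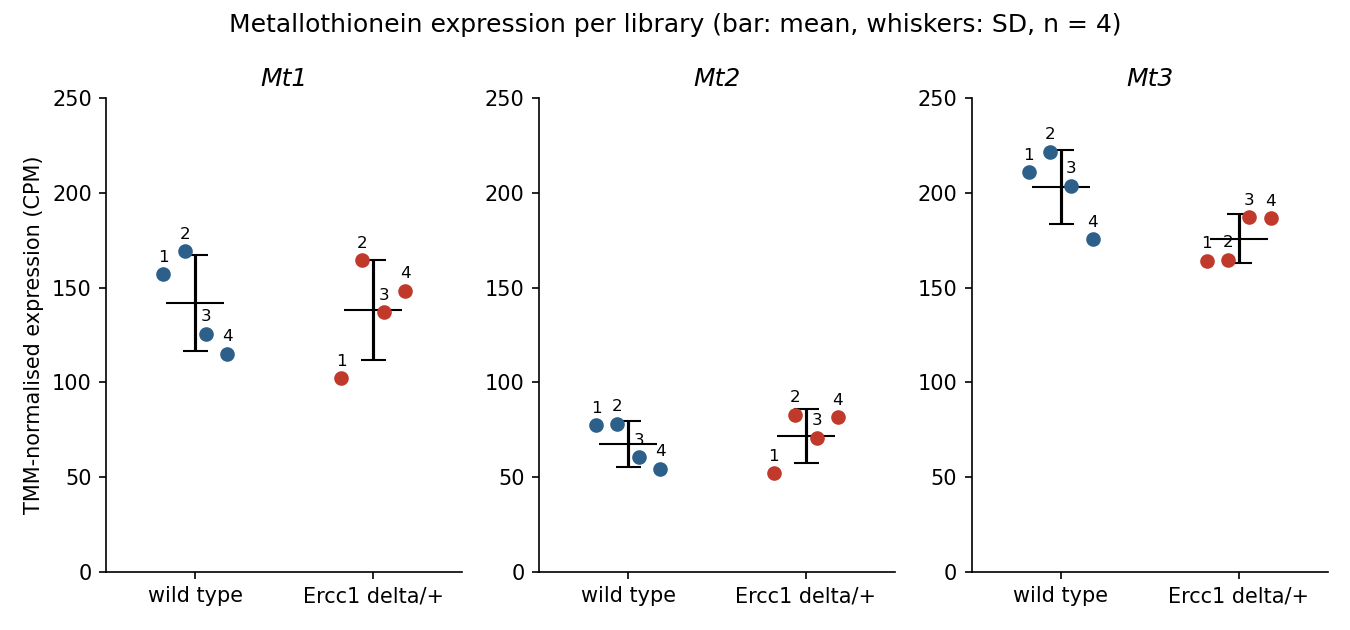
Normalised expression of Mt1, Mt2 and Mt3 in each library. The vertical axis is CPM on a linear scale from 0, points are libraries numbered by replicate (blue, wild type; red, Ercc1 delta/+), the horizontal bar is the mean and the whiskers are the SD. The genotypes overlap in all 3 panels, and in the Mt3 panel wild type replicate 4, at 176 CPM, is the only wild type library among the mutants.

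None of the 3 members passed the edgeR test at an adjusted p of 0.05, which 7 of 15000 genes (0.0467%) did over the whole table, 0.0133% higher and 0.0333% lower in Ercc1 delta/+. At an unadjusted p under 0.05, 1 member counted, Mt3. The genotypes overlapped for all 3 members. Over all genes tested, every mutant library lay above every wild type library for 5.18% and below for 6.86%. The median log2 fold change was -0.04 over the members and -0.00269 over all genes tested. In the authors' deposited table the log2 fold changes were -0.02 for Mt1, 0.10 for Mt2 and -0.18 for Mt3, with deposited adjusted p-values of 0.953, 0.904 and 0.507. In bulk tissue, fewer cells of a type and less RNA per cell cannot be told apart.

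The sign of these small differences moved with the scaling for transcript length. Genes with longer transcripts tended to higher log2 fold changes (Spearman coefficient 0.395 across genes, which are no independent samples). The members fall in the shortest decile of transcripts, 264 to 1265 bases. For the 1476 genes of that decile the median was -0.21, and 83.0% of them were negative. Mt3, at -0.21, stood at their middle, with 51.0% of them below it. Mt1 lay above 79.6% and Mt2 above 88.1% of them. When each library's trend over length and GC content was removed by an offset, the log2 fold changes were 0.21 (95% interval -0.04 to 0.47) for Mt1, 0.39 (0.11 to 0.66) for Mt2 and 0.03 (-0.18 to 0.25) for Mt3, with edgeR adjusted p-values of 0.524, 0.320 and 0.929. Mt1 and Mt3 thus changed sign, Mt2 was positive both ways with an unadjusted p of 0.0106 under the offset, and none passed.

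**Figure D3:**
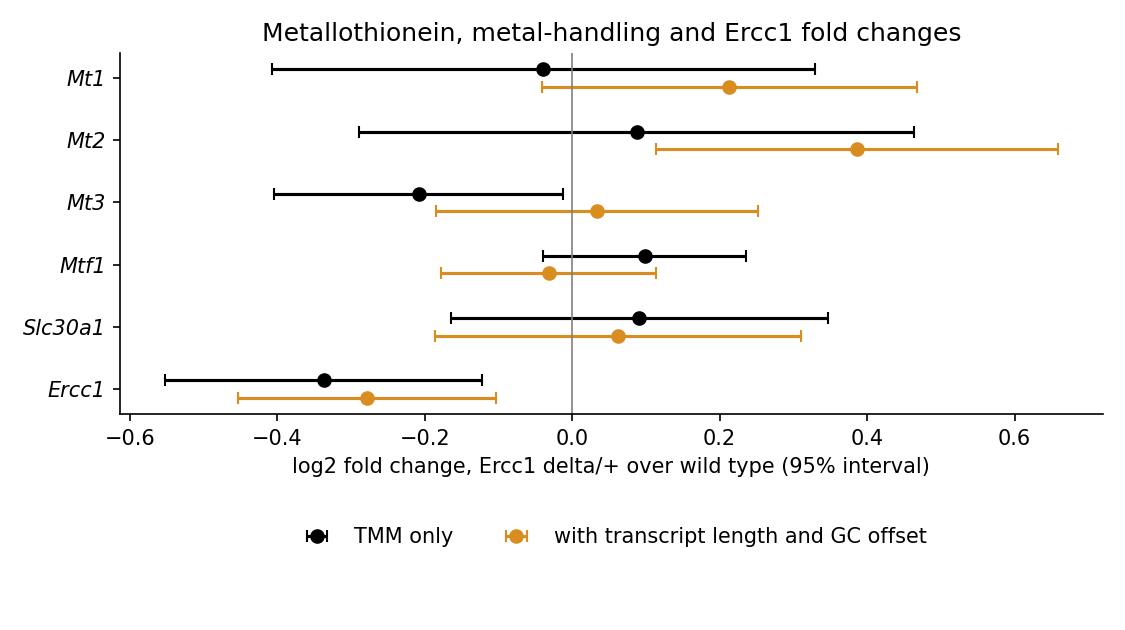
Log2 fold changes of Ercc1 delta/+ over wild type for the members, for Mtf1 and Slc30a1 and for Ercc1. Points are estimates and bars 95% intervals, in black with TMM scaling and in orange with an added offset for transcript length and GC content. The orange points of Mt1, Mt2 and Mt3 lie to the right of the black ones, at 0.21, 0.39 and 0.03 in place of -0.04, 0.09 and -0.21.

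Mt1 and Mt2 varied together from library to library. Over the 8 libraries their log2 CPM correlated at Pearson r = 0.955 (exact permutation p = 0.000471, adjusted over 3 pairs 0.00141) and Spearman rho = 0.881 (exact permutation p = 0.00724, adjusted 0.0217). Without Ercc1 delta/+ replicate 1 and wild type replicate 4, the libraries farthest from the median of Mt1, r was 0.866. As deviations from the mean of each genotype, the coefficients were r = 0.986 and rho = 1.0 (exact permutation within genotypes, p = 0.00174 and 0.00347, the first being the smallest that 576 orders give, adjusted 0.00521 and 0.0104), so the libraries stood in the same order for both genes. For Mt3 no such relation passed the test. Its r with Mt1 was 0.501 (exact permutation p = 0.204) and with Mt2 0.357 (exact permutation p = 0.375), with rho of 0.548 and 0.238 (exact permutation p = 0.171 and 0.582) and adjusted p-values of at least 0.256. Without the same 2 libraries r was -0.00111 and -0.317, so the coefficients rested on them. As deviations from the mean of each genotype, r of Mt3 was 0.605 with Mt1 and 0.647 with Mt2. These did not pass either (exact permutation within genotypes, p = 0.146 and 0.101, both adjusted 0.146), and rho was 0.524 for both. Without the same 2 libraries these r were -0.038 and 0.046. Ercc1 delta/+ replicate 2 shows how the members parted. It held 164 CPM of Mt1, next to the top of the 8 libraries, and 165 CPM of Mt3, next to the bottom.

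**Figure D4:**
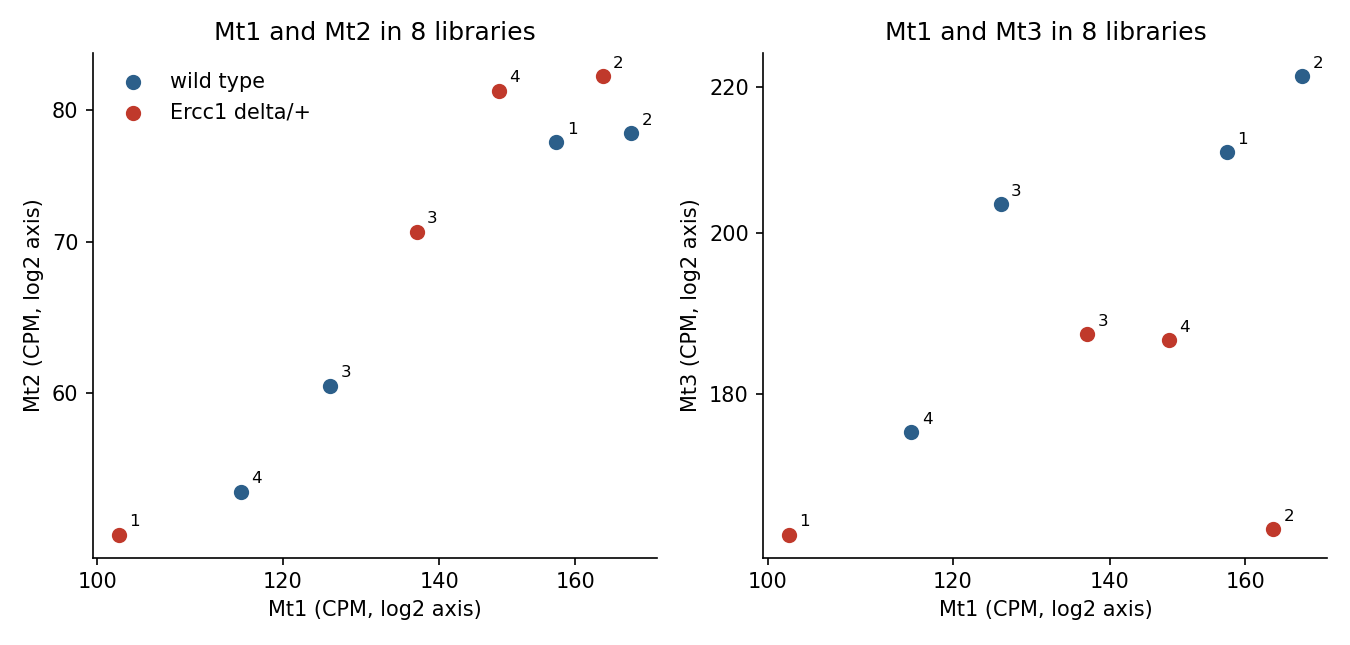
Mt1 against Mt2 (left) and Mt1 against Mt3 (right), in CPM on log2 axes. Each point is a library, numbered by replicate and coloured by genotype. The 8 libraries fall along a line for Mt1 and Mt2 (r = 0.955), while Ercc1 delta/+ replicate 2, with 164 CPM of Mt1 and 165 CPM of Mt3, lies far off any such line at the right.

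The spread behind these orders was also wider for the inducible pair. The biological coefficient of variation estimated by edgeR, the spread between replicates beyond counting error, was 17.1% for Mt1, higher than in 90.7% of the 1793 genes within 1.5-fold of its level, whose median was 10.2%. For Mt2 it was 17.2%, above 92.5% of 2807 such genes. Mt3 was ordinary in this respect, at 10.5% against a median of 10.4%. These coefficients are from the fit with TMM scaling alone, where the SE of the log2 fold change was 0.16, 0.17 and 0.09 for Mt1, Mt2 and Mt3. With the length and GC offset it was 0.11, 0.12 and 0.10.

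The balance between members was compared inside each library, where scaling to library size cancels. A trend over transcript length and GC content need not cancel, and the ratios were not tested with that offset. Mt1 counts per Mt2 count stood at 1.97, 1.98, 1.94 and 1.82 in Ercc1 delta/+ replicates 1 to 4 and at 2.03, 2.16, 2.08 and 2.12 in wild type replicates 1 to 4. Every mutant library thus had a lower Mt1 to Mt2 ratio than every wild type library. The mean log2 ratio was 0.94 ± 0.06 in Ercc1 delta/+ and 1.07 ± 0.04 in wild type (SD, n = 4 each), a difference of -0.12 with an exact two-sided permutation p of 0.0286, the smallest that 4 against 4 libraries can give. Adjusted over the 3 pairs of members it was 0.0857, which misses the threshold of 0.05. Without Ercc1 delta/+ replicate 4, the library with the lowest ratio, the difference was -0.10 (exact permutation p = 0.0571). Intervals for counting error alone overlapped between neighbouring libraries of the 2 genotypes. The Mt1 share of the summed counts was 66.5% (95% Wilson interval 65.1% to 67.9%) in Ercc1 delta/+ replicate 2 and 67.0% (65.8% to 68.2%) in wild type replicate 1.

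**Figure D5:**
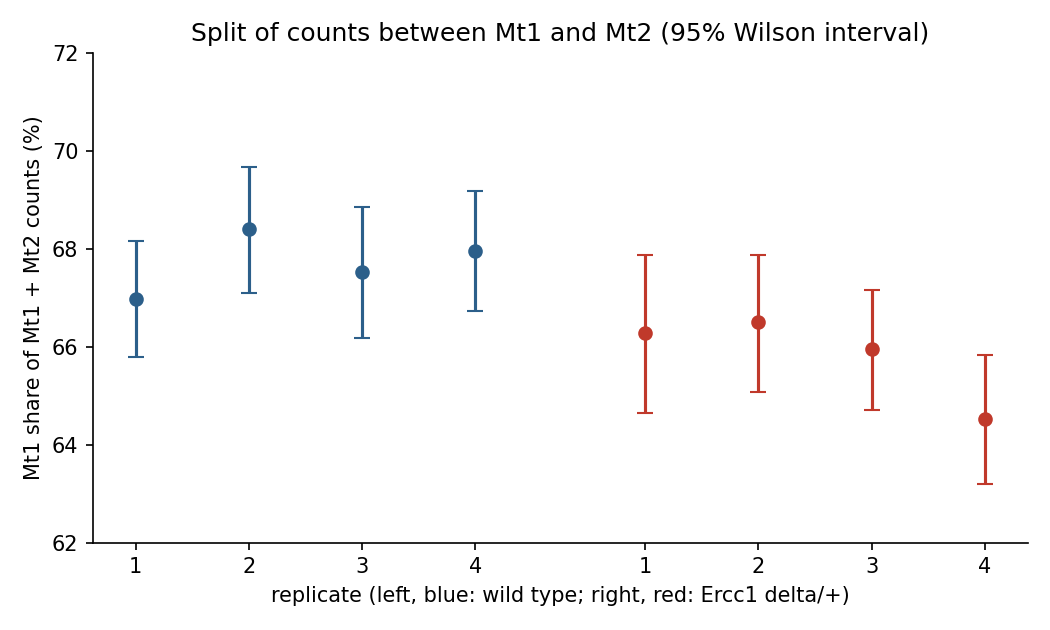
Mt1 share of the counts of Mt1 and Mt2 together, in percent, in each library. The vertical axis starts at 62%, points are libraries (blue, wild type; red, Ercc1 delta/+) and bars are 95% Wilson intervals. The 4 mutant libraries lie between 64.5% and 66.5% and the wild type libraries between 67.0% and 68.4%, with intervals that overlap between neighbours.

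The ratios that involve Mt3 overlapped between genotypes. The difference in log2 ratio was 0.16 for Mt1 over Mt3 (exact permutation p = 0.400, adjusted 0.400) and 0.29 for Mt2 over Mt3 (exact permutation p = 0.114, adjusted 0.171). Without Ercc1 delta/+ replicate 1, the library lowest in Mt1 and Mt2, the Mt2 to Mt3 difference was 0.40 (exact permutation p = 0.0286, adjusted 0.0429) and that of Mt1 to Mt2 was -0.13 (exact permutation p = 0.0286, adjusted 0.0429). Both thus passed the threshold without that library and missed it with all 8 libraries. When any other library was left out, both missed it, with adjusted exact permutation p-values of at least 0.0857. The 0.0286 is the smallest p that the 35 assignments of these libraries give. How reads that fit more than 1 gene were treated is not given in the sources used here. The Mt1 and Mt2 transcripts were 74.9% identical over 483 aligned bases, and their longest exactly shared run was 20 bases. No exact 36-base window was shared between any pair of the 3 transcripts. The read length is not given either, so whether reads were shared between members cannot be settled from these matches.

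None of the genes around the cluster passed the test. Nudt21, Ogfod1 and Bbs2 on the Mt4 side and Nup93, Herpud1 and Nlrc5 on the Mt1 side had log2 fold changes from -0.11 (Bbs2) to 0.40 (Nlrc5), and 0 of 6 passed the test. Herpud1, a gene of the endoplasmic reticulum stress response, had the lowest adjusted p of the 6 (log2 fold change 0.31, SE 0.12, edgeR adjusted p = 0.214).

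No gene of zinc handling passed the test. Mtf1, which reads zinc and drives Mt1 and Mt2, stood at 53.1, 51.1, 50.9 and 54.4 CPM in Ercc1 delta/+ and 48.0, 53.1, 46.6 and 48.2 CPM in wild type, with a log2 fold change of 0.10 (SE 0.06, edgeR adjusted p = 0.421) that was -0.03 with the length and GC offset. Slc30a1, the exporter that Mtf1 also induces, had a log2 fold change of 0.09 (SE 0.11, edgeR adjusted p = 0.705). Of the 8 Slc30 genes tested, which export zinc or load it into vesicles, 3 were positive and 5 negative (median -0.01). Slc30a3, the synaptic vesicle zinc transporter gene, ran from 20.3 to 68.6 CPM in Ercc1 delta/+ and from 15.3 to 53.2 CPM in wild type (log2 fold change 0.70, SE 0.44). In Slc30a9 the mutants lay below every wild type library (-0.12, SE 0.06), as in 6.86% of all genes tested, without passing. Of the 13 Slc39 zinc importer genes, 9 were positive and 4 negative (median 0.05), and the lowest p-values belonged to Slc39a8 (-0.29, SE 0.13) and Slc39a12 (-0.22, SE 0.11). In all, 0 genes of these lists passed the edgeR test, with adjusted p-values of at least 0.285.

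Of 10 copper-handling genes tested, 6 were negative and 4 positive, 0 passed the edgeR test (lowest adjusted p = 0.103), and the median was -0.15 against -0.00269 over all genes. The groups did not overlap for Cox17, the copper chaperone of cytochrome oxidase (22.3 ± 3.29 against 29.5 ± 1.62 CPM, SD, n = 4 each), and for Sod1, the copper- and zinc-binding superoxide dismutase (125 ± 10.5 against 145 ± 4.91 CPM, SD, n = 4 each). Over all genes tested, every mutant library lay below every wild type library for 6.86%. Commd1, which regulates copper export, had a log2 fold change of -0.32 and the copper pump gene Atp7a of 0.34. With the length and GC offset the median of the list was 0.05, with a term for depth 0.06, without wild type replicate 4 -0.03, and under that offset Sod1 stood at 0.07. Of 12 iron-handling genes 5 were positive (median -0.03), and 0 passed the edgeR test (lowest adjusted p = 0.204).

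Among genes of pathways known to induce Mt1 and Mt2, 1 passed the test. Of the 15 glucocorticoid-induced genes, 14 were positive with a median of 0.63, and Zbtb16 passed the edgeR test (log2 fold change 2.23, SE 0.24, adjusted p = 0.0342). Mertk (1.02), Fkbp5 (0.86) and Hif3a (1.54) had groups that did not overlap and missed the threshold. Every mutant library lay above every wild type library for 5.18% of all genes tested. The summed level of the list was 728 to 1179 CPM in Ercc1 delta/+ and 532 to 652 CPM in wild type. Mt1 ran from 102 to 164 CPM in Ercc1 delta/+ and from 115 to 169 CPM in wild type. For Mt2 the ranges were 52.0 to 82.8 CPM and 54.3 to 78.1 CPM. Zbtb16 missed the threshold with the length and GC offset (edgeR adjusted p = 0.0793), the depth term (0.124), the replicate block (0.119) and the offset and block together (0.316). It also missed it when Ercc1 delta/+ replicate 3 (0.05005) or 4 (0.112) or wild type replicate 2 (0.0973), 3 (0.162) or 4 (0.0513) was left out. Its log2 fold change stayed between 2.08 and 2.44 over all alternatives, with 2.13 under the offset and 2.21 with the depth term. Of 14 targets of the oxidative stress factor NRF2, 4 were positive and 10 negative (median -0.06), with Prdx1 at -0.47 and Txn1 at -0.47 the lowest in p and 0 past the edgeR test. Of 14 reactive astrocyte genes, 12 were positive (median 0.26), led in p by Osmr (0.96) and Hspb1 (1.31), and 0 passed the edgeR test.

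Markers of astrocytes, the main source of Mt1 and Mt2, showed no change that passed the test. Of 16 tested, 5 were positive and 11 negative, with a median log2 fold change of -0.06, and 0 passed the edgeR test (lowest adjusted p = 0.172, Ndrg2). Their summed level ran from 6436 to 8883 CPM in Ercc1 delta/+ and from 6302 to 9115 CPM in wild type. Ndrg2 (-0.22) and Agt (-0.31) had the lowest p-values. Relative to the mean of the 8 libraries, the astrocyte list and the metallothioneins were both highest in wild type replicate 2, at 0.23 and 0.24 on the log2 scale. In Ercc1 delta/+ replicate 1 the metallothioneins, as the mean of Mt1, Mt2 and Mt3, lay at -0.34 and the astrocyte list at 0.03. Whether astrocyte content contributed to the metallothionein levels was not tested. The median was 0.07 for 12 neuron markers (9 positive), -0.10 for 10 dopaminergic markers (2 positive), -0.06 for 10 oligodendrocyte markers (3 positive) and 0.01 for 10 microglia markers (5 positive), with 0 past the edgeR test (lowest adjusted p = 0.144).

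Markers of choroid plexus and ependyma, of meninges and of vessels were mostly positive, and those of blood negative. The 14 choroid plexus and ependymal markers had a median log2 fold change of 1.26 (11 positive, summed level 434 to 2084 CPM in Ercc1 delta/+ and 369 to 590 CPM in wild type), and the 8 meningeal fibroblast markers 0.47 (8 positive, 1055 to 1620 and 431 to 1660 CPM). Relative to the mean of the 8 libraries, the choroid plexus and ependymal list was highest in Ercc1 delta/+ replicate 3 (1.56 on the log2 scale). It was lowest in Ercc1 delta/+ replicate 4 (-0.68). Of the 10 endothelial and pericyte markers 8 were positive (median 0.27, 513 to 621 and 414 to 483 CPM), and the 3 blood markers were negative (median -0.45, 151 to 235 and 237 to 320 CPM). None of them passed the edgeR test (lowest adjusted p = 0.0504), and their part in the glucocorticoid-induced values and in the metallothionein levels was not tested.

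The genes whose pattern over the 8 libraries was most like that of a member were picked by Pearson correlation of log2 CPM among 12077 genes of at least 5 CPM. With so many genes and 8 points, high coefficients arise readily, and they are given as a description. For Mt1 they were Zkscan14 (r = 0.967), Aprt (0.939), Mrps6 (0.926) and Pcyt1a (0.922), and for Mt2 Mettl7a1 (0.945), Zkscan14 (0.925), Rai2 (0.918) and Sspo (0.916). Zkscan14 stood on both lists. For Mt3 they were Trir (0.943), Pcp4 (0.939), Itgb1bp1 (0.932) and Mpv17l2 (0.931), none of them shared with Mt1 or Mt2. By this measure Mt1 and Mt2 (r = 0.955) were closer to each other than Mt2 was to any of these. Mt1 was closer to Zkscan14 than to Mt2. By Spearman rho Mt2 was closer to Mettl7a1 (0.976), Zkscan14 (0.905) and Rai2 (0.905) than to Mt1 (0.881), though not to Sspo (0.762). As deviations from genotype means, Bloc1s2 reached r = 0.995 with Mt1 and 0.989 with Mt2, against 0.986 between the pair.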

How the data were processed

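RNA of 8 ventral midbrain samples, 4 per genotype, was sequenced from poly(A)-selected libraries, pooled in a single lane per the labels' protocols. Per the submitters' processing notes, the authors used TopHat 1.3.1 and edgeR on mm9. For the counting tool, strand and multi-mapping treatment, the sources used here give nothing. The deposited table holds raw counts for 19931 coding RefSeq rows, with the authors' log2 fold changes, p-values and adjusted p-values. The lowest row total is 31 counts, so sparse rows had been left out.

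Rows were matched to symbols through RefSeq (GRCm38.p6) and GENCODE M21 (19600 matched, 331 not). The row with the highest total stood for a gene and 87 genes with identical counts were merged, leaving 15285. Transcript length and GC content came from GENCODE. Genes were tested with the quasi-likelihood test of edgeR 4.0.16 (R 4.3.3), TMM, filterByExpr (15000 genes), Benjamini-Hochberg adjustment and a threshold of 0.05, two-sided, and checked on simulated data. Log2 CPM used a prior count of 2. At these depths 3 counts are 0.0961 to 0.164 CPM. Replicates differed beyond sampling noise (lowest chi-square over degrees of freedom 11.8).

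Named are the members, Ercc1, Mtf1 and Slc30a1, up to 4 genes per list by p, the 4 genes most like each member, and 3 neighbours on each side. Th was named in addition, to check the tissue. Members and lists were chosen with earlier results of these data known. Alternatives were other scalings, filters and tools (DESeq2 1.42.0, limma-voom 3.58.1), a replicate block, a term for the 4 shallowest libraries, a length and GC offset, and leaving out libraries.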

Additional observations from a re-analysis of the deposited data

Results flagged for a closer look

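In 70 groups of 4 libraries, each of a named gene, a ratio of members or the summed level of a list, 3 libraries stood apart from the others of their genotype by a gap above 0.829 of the range. Chance flags about 1 in 20 groups. The zinc importer gene Slc39a12 was at 85.4 CPM in Ercc1 delta/+ replicate 2, against 63.5 to 66.4 CPM in the other mutants. The summed level of the Slc30 zinc exporter list was 469 CPM (468.9) in wild type replicate 2, against 425 to 429 CPM in the other wild type libraries. The summed level of the neuron markers was 8045 CPM in wild type replicate 4, against 9595 to 9834 CPM. None of the values of Mt1, Mt2 or Mt3 in any library stood apart in this way.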

How the results depend on the processing

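Over 21 alternatives each, Mt1, Mt2 and Mt3 never passed the threshold (lowest adjusted p 0.492, 0.320 and 0.134). With the length and GC offset Mt1 was 0.21 and Mt3 0.034, and with that offset and the replicate block 0.22 and 0.025, where Mt2 was 0.39. Leaving out 1 library gave -0.13 to 0.081 for Mt1, -0.0050 to 0.21 for Mt2, -0.27 to -0.16 for Mt3 and -0.39 to -0.28 for Ercc1, which passed with DESeq2 (-0.33, adjusted p = 0.0382). The sign of Mt1 turned without Ercc1 delta/+ replicate 1 (0.081) or wild type replicate 1 (0.014) or 2 (0.056), and that of Mt2 without wild type replicate 4 (-0.0050). With the offset, without and with the replicate block, Mtf1 was -0.032 and -0.029 and Sod1 0.067 and 0.063, and with the depth term Bbs2 was 0.012. The difference between Mt1 and Mt2 ran from -0.14 to -0.10 without 1 library, Mt1 and Mt3 from 0.04 to 0.27, and Mt2 and Mt3 from 0.18 to 0.40. The count of genes past the threshold, 7, was 33 with RLE, 86 with upper-quartile scaling, 52 with the stricter filter, 1039 with DESeq2, 549 with the edgeR exact test, 52 with limma-voom, 4 with every transcript as its own row, 1 with the depth term, 1 with the offset, and 0 to 320 without 1 library. With the replicate block it was 0 (2927 genes at an unadjusted p under 0.05), and 0 with the offset and block together (1725 genes). Same-numbered samples deviated from their group means with correlations of -0.33, 0.20, -0.02 and 0.33. Such few values, of mixed sign, cannot settle whether the numbers pair the samples. With the block Mt1, Mt2 and Mt3 were -0.04, 0.08 and -0.21, and Zbtb16 was 2.24 (adjusted p = 0.119), or 2.14 with the offset too (0.316). Of 378 other values for list medians, 367 moved by less than the spread between libraries. The cause of these shifts was not tested. By deviations from group means, 2, 1 and 0 of the 4 genes most like Mt1, Mt2 and Mt3 were the same.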

Other observations

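After the data had been seen, the deviations of Mt1, Mt2 and Mt3 from their genotype means were set against those of the mean of each other gene list, 51 relations in all over 8 libraries. The strongest were Mt1 with NRF2 targets (r = 0.79, exact permutation p = 0.0260, rho = 0.76, p = 0.0625), Mt2 with glucocorticoid-induced genes (r = 0.83, exact permutation p = 0.0312, rho = 0.74, p = 0.0694) and Mt2 with NRF2 targets (r = 0.76, exact permutation p = 0.0330, rho = 0.76, p = 0.0625). Adjusted over the 51 relations their permutation p was 0.561 for r and 0.635 for rho, so none passed. Without the 2 libraries farthest out on the list, r was 0.83, 0.85 and 0.85. Mt1 against astrocyte markers gave r = 0.52 (exact permutation p = 0.229, rho = 0.55, p = 0.212), which was -0.07 without the 2 farthest libraries.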
